A study of Mus musculus with 18 samples.

Results

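Regulators of G-protein signalling, the RGS proteins, are described here through 8 genes, Rgs1, Rgs2, Rgs3, Rgs10, Rgs14, Rgs16, Rgs18 and Rgs19, in CD8 and CD4 T cells sorted from mouse bone marrow. The 8 genes were taken by symbol from the 23930 genes of a targeted RNA sequencing panel, and each of them passed the low-count filter that left 11316 genes for testing. The panel holds 21 genes named Rgs with a number, and the other 13 are described after the 8.

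A receptor coupled to a heterotrimeric G protein switches its α subunit on by exchanging GDP for GTP. RGS proteins bind the active α subunit through a shared domain and speed its GTP hydrolysis, so the signal from the receptor ends sooner. In lymphocytes many chemokine receptors signal through Gαi, and Rgs1 and Rgs16 are known there as brakes on chemokine-driven migration.

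The mice were of 3 kinds, with 3 mice of each kind according to the series' design, and CD8 and CD4 cells were sorted from the marrow of each kind by flow cytometry. Zinc-fed pMT-10 mice overexpressed interleukin-10, pMT-10 mice without zinc drank control water, and zinc-fed C57BL/6 mice had no transgene named in their labels; drinking lasted 30 days. As background, the pMT name refers to a metallothionein promoter, which zinc induces in many cell types, so the transgene is not specific to T cells. Ages and sexes were not stated, and the labels did not say which CD8 and CD4 libraries came from the same mouse. Each of the 6 groups had 3 libraries, and total counts ran from 10546798 to 18519474 per library. Levels are given as counts per 1000000 (CPM), scaled by trimmed mean of M-values (TMM) normalisation, and they are compared within a gene because each gene was read through its own amplicon.

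Il10 itself averaged 12.8 ± 9.62 CPM in zinc-fed pMT-10 CD8 cells and was at 0 in all CD8 libraries of both control groups. In CD4 cells Il10 averaged 21.2 ± 4.71 CPM in zinc-fed pMT-10, 2.71 ± 1.16 in pMT-10 without zinc and 6.13 ± 2.76 in zinc-fed C57BL/6 (SD, n = 3 each). Sort markers fitted the labels: Cd4 reached at most 5.56 CPM in any CD8 library, and Cd8a plus Cd8b1 lay between 19.9 and 45.5 CPM in CD4 libraries against at least 3512 CPM in CD8 libraries. The zinc-fed libraries shared 1 sequencing chip and the libraries without zinc shared another, which leaves zinc confounded with the chip, and their parts cannot be told apart. Sex also cannot be told apart from strain: Xist, the transcript of the inactive X chromosome, was at 527 to 1003.2 CPM in pMT-10 libraries, and the Y-linked gene Ddx3y was at 110 to 206 CPM in C57BL/6 libraries. Some libraries stood apart in genes outside the RGS family. Zinc-fed pMT-10 CD4 replicate 3 carried platelet transcripts at a summed 159 CPM, with 0 of 6 marker genes at 0, against at most 3.67 CPM in the other libraries. Zinc-fed C57BL/6 CD4 replicate 3 had 40.1 CPM of Xist, against at most 7.49 CPM in the other C57BL/6 libraries.

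In RefSeq's mouse assembly GRCm38.p6, 4 of the 8 genes lie on chromosome 1, Rgs16 at chr1:153740353-153745468, Rgs2 at chr1:143999338-144004149, Rgs1 at chr1:144244669-144249104 and Rgs18 at chr1:144752683-144775427. Rgs8 at chr1:153652959-153697669 is the nearest protein-coding neighbour of Rgs16 on that side, with a gap of 42.7 kb and 0 protein-coding genes between them. Outside chromosome 1, Rgs19 is at chr2:181688419-181694537, Rgs3 at chr4:62559835-62703019, Rgs10 at chr7:128373621-128419506 and Rgs14 at chr13:55369732-55384687. The sequences just upstream of Rgs16 and Rgs8 are printed because of their shared neighbourhood and because Rgs16 in control CD8 cells, and Rgs8 in most control libraries, were at or near 0. Both are on the plus strand, 5′ to 3′, from RefSeq GRCm38.p6. Capitals mark CG dinucleotides, and also the last letter where the next base completes one.
Rgs16, chr1:153740103-153740352: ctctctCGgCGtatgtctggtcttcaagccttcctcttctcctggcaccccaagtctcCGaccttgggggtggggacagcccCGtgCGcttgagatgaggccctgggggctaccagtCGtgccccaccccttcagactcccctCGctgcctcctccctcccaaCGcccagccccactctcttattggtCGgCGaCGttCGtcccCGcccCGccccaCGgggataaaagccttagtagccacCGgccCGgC
Rgs8, chr1:153652787-153652958: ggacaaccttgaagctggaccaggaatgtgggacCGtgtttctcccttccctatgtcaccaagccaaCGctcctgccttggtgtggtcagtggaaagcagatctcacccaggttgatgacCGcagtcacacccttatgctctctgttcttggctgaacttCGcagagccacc

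The Rgs16 stretch ends at the last base before the gene and holds 17 CG dinucleotides in 250 bases. The Rgs8 stretch, which stops where the annotated gene begins, holds 4 in 172 bases. In the promoter windows of 300 bases (250 before a start and 50 after it), Rgs16 had 66% G or C and 22 CG dinucleotides. The median of 32851 such windows was 52.7% and 7 dinucleotides, and 76.9% of windows held fewer CG dinucleotides than the Rgs16 window. Promoter entries were found for 5 of the 8 genes, namely Rgs2, Rgs3, Rgs10, Rgs16 and Rgs19. Searching both strands, the Rgs16 window held no TATAAA, a motif in 13.6% of all windows. It also held no TGACG, the core of the cAMP response element, which 20.8% of windows hold, and no STAT-type motif TTCNNNGAA, which 8.3% hold. The first Rgs8 window held TGACG and neither of the other motifs.

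In zinc-fed pMT-10 cells, Rgs1 was higher than in either control in both cell types, Rgs16 was higher by a large factor in CD8 cells, and Rgs10 and Rgs19 were lower in some comparisons. Against zinc-fed C57BL/6, in CD8 cells 2 of the 8 genes were called higher (Rgs1, Rgs16) and 1 lower (Rgs10) at a Benjamini-Hochberg adjusted p under 0.05 from edgeR's quasi-likelihood test. Of all genes tested there, 8.81% were called, 5.68% higher and 3.13% lower. In CD4 cells 2 were called higher (Rgs1, Rgs3) and 2 lower (Rgs10, Rgs19), beside 18.7% of all genes, 9.29% higher and 9.4% lower. Against pMT-10 without zinc, CD8 cells again had 2 higher (Rgs1, Rgs16) and 1 lower (Rgs10), beside 7.74% of all genes, 5.1% higher and 2.64% lower. CD4 cells had 3 higher (Rgs1, Rgs3, Rgs16) and 1 lower (Rgs19), beside 18.8% of all genes, 9.38% higher and 9.4% lower. The comparisons with the 2 controls share the zinc-fed pMT-10 libraries. Groups whose libraries did not overlap, in either direction, were common among all genes tested. Against C57BL/6 this held for 23.6% of genes in CD8 and 37.4% in CD4 cells. Against pMT-10 without zinc it held for 23.1% in CD8 and 43.3% in CD4 cells. The median log2 fold change of the 8 genes was 0.58 in CD8 and 0.07 in CD4 cells against C57BL/6, where all genes tested had 0.00 and -0.05. Against pMT-10 without zinc the medians were -0.19 in CD8 and 0.38 in CD4 cells, where all genes had 0.00 and -0.05. The T cells here are bulk samples, so fewer cells of a type and less RNA per cell cannot be told apart.

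**Figure D1:**
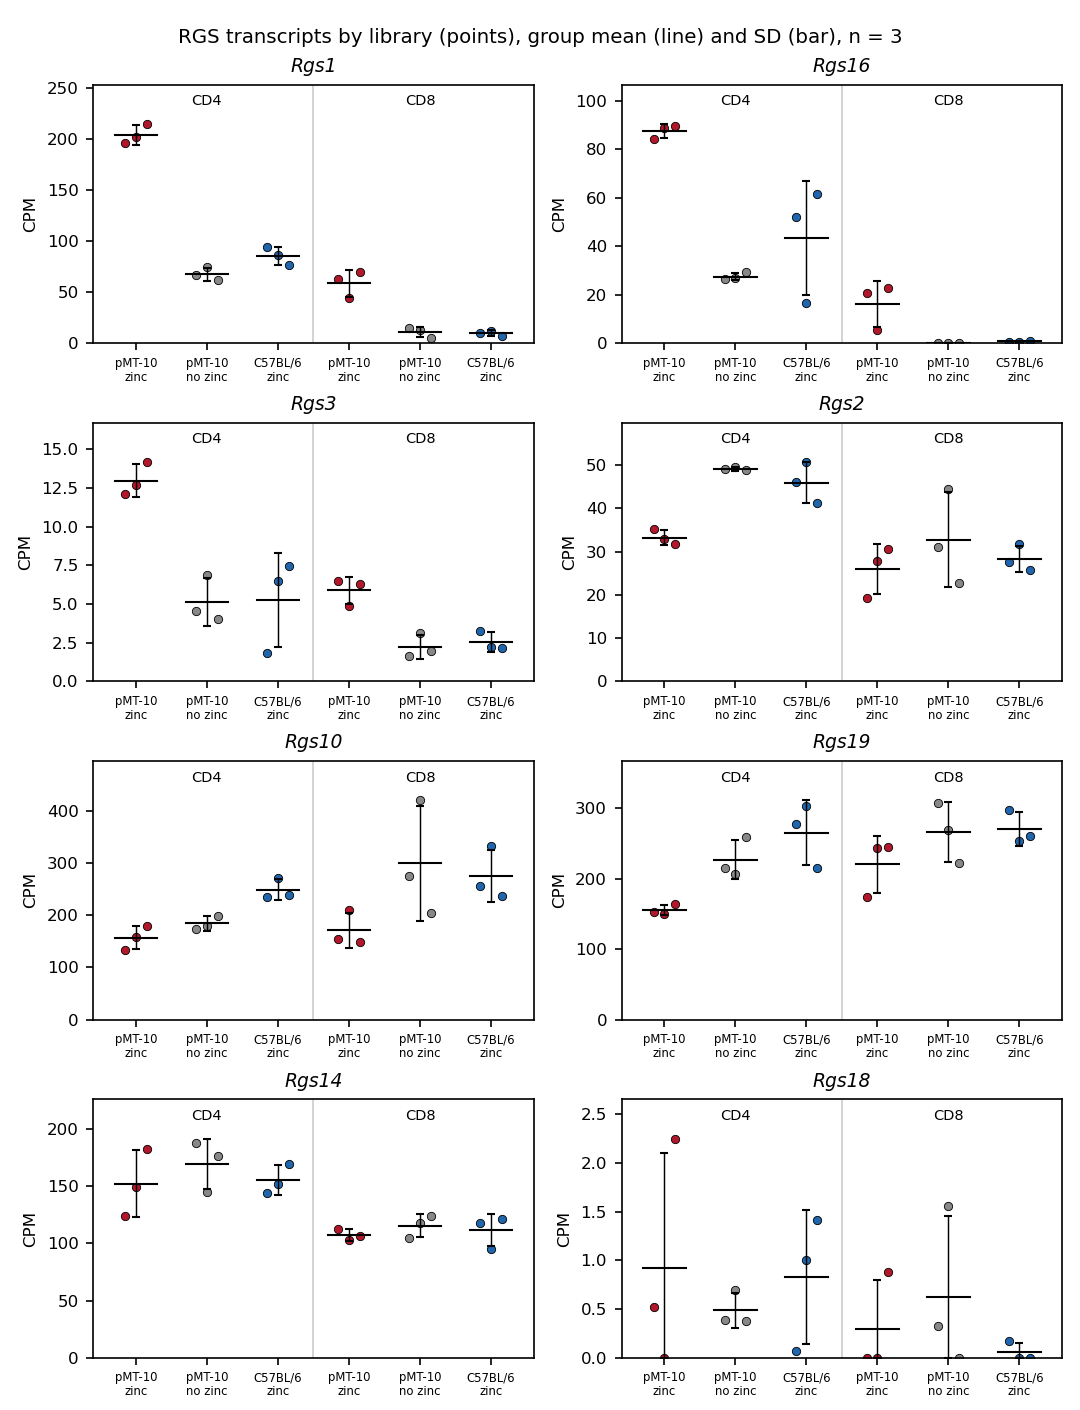
Level of each of the 8 RGS genes in the 18 libraries, in CPM scaled by TMM, by group; points are libraries, bars the mean, and error bars the SD of 3 libraries (stopped at 0). Rgs1 stood at 196 to 215 CPM in zinc-fed pMT-10 CD4 cells, above every other library, and Rgs16 in control CD8 cells stayed at or under 0.870 CPM.

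Rgs1, a small member of the R4 subfamily that is abundant in activated lymphocytes, was the member whose rise held in all 4 comparisons with zinc-fed pMT-10 cells. In CD8 cells it was at 62.8, 43.9 and 69.6 CPM in zinc-fed pMT-10, at 14.5, 12.9 and 5.51 CPM in pMT-10 without zinc, and at 10.4, 12.3 and 7.23 CPM in zinc-fed C57BL/6. In CD4 cells it was at 196, 202 and 215 CPM in zinc-fed pMT-10, at 66.4, 74.5 and 62.0 CPM in pMT-10 without zinc, and at 94.1, 86.8 and 76.5 CPM in zinc-fed C57BL/6. In each cell type all 3 zinc-fed pMT-10 libraries lay above all 6 control libraries. Against C57BL/6 the rise was 5.89-fold in CD8 cells (log2 2.57, SE 0.27, adjusted p = 1.99e-06) and 2.38-fold in CD4 cells (log2 1.25, SE 0.24, adjusted p = 0.000829). Relative to pMT-10 without zinc it was 5.36-fold in CD8 cells (log2 2.44, SE 0.26, adjusted p = 3.16e-06) and 3.02-fold in CD4 cells (log2 1.59, SE 0.24, adjusted p = 7.64e-05). Each of these 4 calls held when any library of the 2 groups was left out. By group mean the order of Rgs1 levels was zinc-fed pMT-10 CD4 (204 ± 9.71 CPM), C57BL/6 CD4 (85.8 ± 8.82), pMT-10 CD4 without zinc (67.6 ± 6.33), zinc-fed pMT-10 CD8 (58.8 ± 13.3), pMT-10 CD8 without zinc (11 ± 4.79) and C57BL/6 CD8 (9.98 ± 2.58; SD, n = 3 each). The zinc-fed pMT-10 CD8 libraries thus overlapped the range of CD4 cells without zinc, and the 2 CD8 control groups overlapped each other. The 2 CD4 control groups did not overlap, and their difference was not called (log2 -0.34 for pMT-10 without zinc over C57BL/6, adjusted p = 1). Of all genes tested, 11.6% did not overlap between those 2 groups.

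Rgs16, another small R4 member, which acts on Gαi and Gαq, was nearly unread in control CD8 cells. In zinc-fed pMT-10 CD8 cells it was at 20.8, 5.46 and 22.7 CPM, in pMT-10 without zinc at 0, 0.195 and 0.159 CPM, and in C57BL/6 at 0.686, 0.561 and 0.870 CPM. Replicate 2 was the lowest of the zinc-fed pMT-10 CD8 libraries, and it still lay above every control CD8 library. Against C57BL/6 the rise was 23.1-fold (log2 4.49, SE 0.57, adjusted p = 4.16e-05), and 18.6-fold to 30.8-fold without any 1 library. The comparison with pMT-10 without zinc rested on 612 counts in 3 zinc-fed libraries and 5 counts in 3 libraries without zinc, a ratio of 151 after scaling (exact 95% interval of counting error, 64.3 to 466; adjusted p = 5.09e-06). Means over libraries gave 138-fold, 92.2-fold without replicate 1 of the group without zinc and 205-fold without its replicate 2.

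In CD4 cells Rgs16 was at 84.2, 88.8 and 89.5 CPM in zinc-fed pMT-10, at 26.4, 26.7 and 29.1 CPM in pMT-10 without zinc, and at 51.9, 16.6 and 61.5 CPM in zinc-fed C57BL/6. The zinc-fed pMT-10 libraries lay close together and above both controls, and the C57BL/6 libraries were spread more widely than the others. Against pMT-10 without zinc the rise was 3.19-fold (log2 1.68, SE 0.41, adjusted p = 0.00703), and it stayed called without any 1 library. Against C57BL/6 the difference of 2.02-fold was not called (log2 1.01, SE 0.40, adjusted p = 0.0922), and without C57BL/6 CD4 replicate 3 it was (adjusted p = 0.0455). That replicate held the most Rgs16 among the C57BL/6 libraries and the Xist reads given above; their part in the result was not tested. Without the low-count filter the same difference was also called (log2 1.02, adjusted p = 8.64e-05). That setting lowered the adjusted p of Rgs1 and Rgs16 calls far more than their log2 values moved. This call is therefore no separate support. The order of Rgs16 means was zinc-fed pMT-10 CD4 (87.5 ± 2.86 CPM), C57BL/6 CD4 (43.3 ± 23.7), pMT-10 CD4 without zinc (27.4 ± 1.53), zinc-fed pMT-10 CD8 (16.3 ± 9.45), C57BL/6 CD8 (0.706 ± 0.156) and pMT-10 CD8 without zinc (0.118 ± 0.104; SD, n = 3 each). C57BL/6 CD4 libraries overlapped those of pMT-10 CD4 without zinc, and also zinc-fed pMT-10 CD8.

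Rgs3, an R4 member with long and short protein forms that acts on Gαi and Gαq, was higher in zinc-fed pMT-10 CD4 cells than in either control. CD4 levels were 12.1, 12.7 and 14.2 CPM in zinc-fed pMT-10, 4.52, 6.88 and 4.01 CPM in pMT-10 without zinc, and 1.82, 6.48 and 7.46 CPM in zinc-fed C57BL/6. CD8 levels were 6.48, 4.89 and 6.29 CPM in zinc-fed pMT-10, 1.64, 3.12 and 1.96 CPM in pMT-10 without zinc, and 3.26, 2.24 and 2.14 CPM in zinc-fed C57BL/6. In both cell types the zinc-fed pMT-10 libraries lay above all control libraries without overlap. Of all genes, 23.6% in CD8 and 37.4% in CD4 cells did not overlap with C57BL/6 in either direction. Against pMT-10 without zinc the shares were 23.1% and 43.3%. The CD4 rise of Rgs3 was 2.47-fold against C57BL/6 (log2 1.30, SE 0.42, adjusted p = 0.0323) and 2.52-fold against pMT-10 without zinc (log2 1.33, SE 0.42, adjusted p = 0.0283). The CD8 differences of 2.31-fold against C57BL/6 (log2 1.21, SE 0.43, adjusted p = 0.0878) and 2.63-fold against pMT-10 without zinc (log2 1.41, SE 0.44, adjusted p = 0.0506) were not called; DESeq2 called the second (adjusted p = 0.0203). The CD4 calls rested on all 3 replicates: against C57BL/6 the call was lost without any zinc-fed pMT-10 replicate or without C57BL/6 replicate 1 or 2 (adjusted p up to 0.141). The call against pMT-10 without zinc was lost without any zinc-fed replicate or without replicate 1 or 3 of the group without zinc (adjusted p up to 0.119).

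Rgs2, an R4 member that prefers Gαq over Gαi, did not pass the test in any comparison with zinc-fed pMT-10 cells. CD4 levels were 35.1, 32.8 and 31.7 CPM in zinc-fed pMT-10, 49.0, 49.6 and 48.7 CPM in pMT-10 without zinc, and 46.1, 50.6 and 41.2 CPM in zinc-fed C57BL/6. All 3 zinc-fed pMT-10 libraries lay below all 6 controls. Of all genes in CD4 cells, 43.3% did not overlap with pMT-10 without zinc and 37.4% with C57BL/6, in either direction. The log2 difference of Rgs2 was -0.56 against pMT-10 without zinc (SE 0.20, adjusted p = 0.0583) and -0.47 against C57BL/6 (SE 0.20, adjusted p = 0.121). Both passed when libraries were scaled by total count only (adjusted p = 0.0132 and 0.0449), a scaling that moved the median of all genes by -0.15 and -0.11. In CD8 cells Rgs2 averaged 25.9 ± 5.81 CPM in zinc-fed pMT-10, 32.7 ± 11 in pMT-10 without zinc and 28.3 ± 3.06 in C57BL/6 (SD, n = 3 each). The 95% intervals of the CD8 log2 differences were -0.73 to 0.08 against pMT-10 without zinc and -0.53 to 0.28 against C57BL/6.

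Rgs18, an R4 member known from platelets and megakaryocytes, was close to unread. CD8 counts were 0, 0 and 12 in zinc-fed pMT-10, 5, 16 and 0 in pMT-10 without zinc, and 2, 0 and 0 in zinc-fed C57BL/6. CD4 counts were 8, 0 and 30 in zinc-fed pMT-10, 6, 13 and 6 in pMT-10 without zinc, and 1, 13 and 18 in zinc-fed C57BL/6. No comparison called Rgs18, and the zinc-fed pMT-10 libraries overlapped both controls in each cell type. The highest value, 2.25 CPM, was in zinc-fed pMT-10 CD4 replicate 3, the library with the platelet transcripts given above; their part in the result was not tested.

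**Figure D2:**
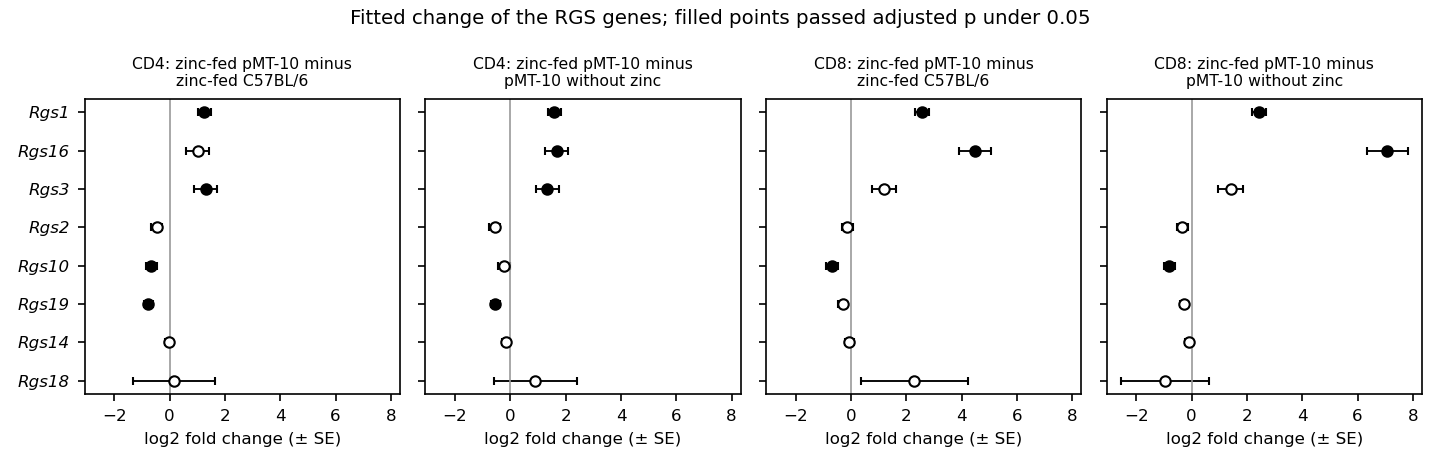
Log2 fold change of each of the 8 RGS genes in zinc-fed pMT-10 cells over each control, by cell type, with error bars of ± SE. Filled points have an adjusted p under 0.05. Rgs1 lies right of 0 in all 4 comparisons and Rgs16 reaches 7.07 in CD8 cells against pMT-10 without zinc.

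Rgs10, the smallest member of the R12 subfamily and a regulator of Gαi in immune cells, was lower in zinc-fed pMT-10 cells than in C57BL/6 in both cell types. CD8 levels were 155, 209.9 and 149 CPM in zinc-fed pMT-10, 276, 419.5 and 203 CPM in pMT-10 without zinc, and 256, 332 and 236 CPM in zinc-fed C57BL/6. CD4 levels were 134, 159 and 179 CPM in zinc-fed pMT-10, 173, 179.6 and 199 CPM in pMT-10 without zinc, and 236, 272 and 238 CPM in zinc-fed C57BL/6. The zinc-fed pMT-10 libraries lay below those of C57BL/6 in each cell type and overlapped those of pMT-10 without zinc in each. Against C57BL/6 the log2 fold change was -0.68 in CD8 cells (SE 0.20, adjusted p = 0.0383) and -0.66 in CD4 cells (SE 0.20, adjusted p = 0.025). Against pMT-10 without zinc it was -0.81 in CD8 cells (SE 0.20, adjusted p = 0.0149), and -0.23 in CD4 cells, which was not called (SE 0.20, adjusted p = 0.476). The calls against C57BL/6 were lost without C57BL/6 replicate 1 or 2 and without zinc-fed pMT-10 replicate 1 or 3 in CD8 cells, or 1 or 2 in CD4 cells (adjusted p up to 0.166 in CD8 and 0.157 in CD4 cells). The CD8 call against pMT-10 without zinc was lost without zinc-fed replicate 1 or 3 or replicate 2 without zinc (adjusted p up to 0.118), and in a fit of those 2 groups alone (adjusted p = 0.0679).

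Rgs14, an R12 member that also carries Ras-binding and GoLoco domains, was not called in any comparison with zinc-fed pMT-10 cells. CD8 levels were 113, 103 and 107 CPM in zinc-fed pMT-10, 104, 118 and 124 CPM in pMT-10 without zinc, and 118, 95.3 and 121 CPM in zinc-fed C57BL/6. CD4 levels were 124, 149 and 182 CPM in zinc-fed pMT-10, 187, 145 and 176 CPM in pMT-10 without zinc, and 144, 151 and 169 CPM in zinc-fed C57BL/6. The groups overlapped within each cell type. The 95% intervals of the differences on the log2 scale were -0.35 to 0.24 in CD8 and -0.32 to 0.26 in CD4 cells against C57BL/6. With pMT-10 without zinc they were -0.39 to 0.19 in CD8 and -0.45 to 0.13 in CD4 cells.

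Rgs19, also known as GAIP, is an RZ subfamily member that binds Gαi3, and it was lower in zinc-fed pMT-10 CD4 cells than in both controls. CD4 levels were 153, 149 and 164 CPM in zinc-fed pMT-10, 215, 207 and 259 CPM in pMT-10 without zinc, and 278, 303 and 215 CPM in zinc-fed C57BL/6. The 3 zinc-fed pMT-10 libraries lay below all 6 controls. The log2 fold change was -0.77 against C57BL/6 (SE 0.16, adjusted p = 0.00148), a call that held without any 1 library, and -0.55 against pMT-10 without zinc (SE 0.16, adjusted p = 0.0185). The second call was lost without zinc-fed replicate 1 or 2 or without replicate 3 of the group without zinc (adjusted p up to 0.117). In CD8 cells Rgs19 averaged 220.3 ± 40.5 CPM in zinc-fed pMT-10, 266 ± 42.5 in pMT-10 without zinc and 270.2 ± 23.7 in C57BL/6 (SD, n = 3 each). The CD8 log2 differences of -0.29 against C57BL/6 (adjusted p = 0.28) and -0.27 against pMT-10 without zinc (adjusted p = 0.348) were not called.

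Contents of the sorted cells other than RGS transcripts moved with these comparisons. In CD4 libraries the summed regulatory T cell markers Foxp3, Il2ra and Ikzf2 lay between 940 and 1834 CPM in zinc-fed pMT-10, 2012 and 2417 in pMT-10 without zinc, and 2371 and 2420 in C57BL/6. The summed T cell markers lay between 5616 and 7187 CPM in zinc-fed pMT-10, 3190 and 3320 in pMT-10 without zinc, and 3466 and 4203 in C57BL/6. Replicate 2 of zinc-fed pMT-10 CD4 stood apart in both sums, with the 1834 and the 5616 CPM, the values nearest to the controls. Replicates 1 and 3 held 1079 and 940 CPM of regulatory T cell markers, and 7187 and 6868 CPM of T cell markers. Monocyte and macrophage markers summed to 21.0 to 32.7 CPM in zinc-fed pMT-10 CD4 libraries, 8.91 to 12 in those without zinc and 7.46 to 9.96 in those of C57BL/6. NK cell markers summed to 4.80 to 15, 163 to 185 and 37.2 to 45.8 CPM in the same order of groups. Stroma and endothelium markers summed to 49.7 to 144 CPM in zinc-fed pMT-10 CD4 libraries, 291 to 393 in those without zinc and 329.8 to 405 in those of C57BL/6. B cell markers summed to 3.97 to 12.7 CPM, 18.6 to 27.8 and 21.2 to 22.4 CPM in that order, and neutrophil markers to 2.81 to 3.60, 0.907 to 1.21 and 1.37 to 2.16 CPM. Plasma cell markers reached at most 0.674 CPM in zinc-fed pMT-10 CD4 libraries and were at least 0.827 CPM in those without zinc and 1.00 in those of C57BL/6. In CD8 libraries erythroid markers summed to 2.56 to 4.25 CPM in zinc-fed pMT-10, 0.159 to 1.66 in pMT-10 without zinc and 0.28 to 0.468 in C57BL/6. Stroma and endothelium markers there summed to 226 to 307 CPM, 336 to 351 and 322 to 398 CPM in that order. CD8 sums of regulatory T cell, T cell, B cell, NK cell and monocyte markers in zinc-fed pMT-10 libraries overlapped those of pMT-10 without zinc. Set against C57BL/6, B cell markers in CD8 libraries of zinc-fed pMT-10 were lower (17.6 to 28.9 CPM, against 33.6 to 45.1 CPM) and monocyte and macrophage markers higher (14.9 to 34.1 CPM, against 3.95 to 14.3 CPM), with no overlap. Platelet markers in CD8 libraries summed to 3.15 to 3.67 CPM in zinc-fed pMT-10, 1.27 to 2.95 in pMT-10 without zinc and 0.803 to 3.43 in C57BL/6. Some of these sums rested on few genes. Of 4 B cell markers in the panel, 2 or 3 were at 0 in every library. Of 4 stroma and endothelium markers (Cdh5, Pecam1, Col1a1 and Cxcl12) 1 to 3 were. Where 3 were at 0, 1 gene held the whole sum, as in C57BL/6 CD4 replicate 3 with 329.8 CPM. These sums are therefore no measure of stroma or endothelium in the samples. Of 3 NK cell markers, 2 were at 0 in every zinc-fed pMT-10 CD4 library. Which cells held these transcripts, and their part in the RGS results, was not tested.

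Between the control groups no RGS member was called. In edgeR's quasi-likelihood test of pMT-10 without zinc against C57BL/6, 0 of 8 passed in CD8 cells, beside 0.0972% of all genes, and 0 of 8 in CD4 cells, beside 0.141%. Both counts are near the share of all genes, so they say little about the members. DESeq2 also called 0 in each cell type. At an unadjusted p under 0.05 there was 1 gene in CD8 cells, Rgs16 (log2 -2.58, SE 1.07, adjusted p = 0.685), and 1 in CD4 cells, Rgs10 (log2 -0.43, SE 0.20, adjusted p = 1). For Rgs16 the CD8 difference rested on 5 counts without zinc and 27 counts in C57BL/6, and it was called when the low-count filter was dropped. Dropping the filter lowered its adjusted p at nearly the same log2 (-2.57), so that call is no separate support.

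CD8 cells held less Rgs1 and Rgs16 than CD4 cells in every kind of mouse. In zinc-fed pMT-10 mice 1 of the 8 genes was called higher in CD8 cells (Rgs19) and 4 lower (Rgs1, Rgs3, Rgs14, Rgs16), beside 28.1% of all genes called, 13.4% higher and 14.7% lower. In pMT-10 mice without zinc 1 was higher (Rgs10) and 5 lower (Rgs1, Rgs2, Rgs3, Rgs14, Rgs16), beside 21.7%, 8.94% higher and 12.8% lower. In C57BL/6 mice 0 were higher and 4 lower (Rgs1, Rgs2, Rgs14, Rgs16), beside 22.2%, 12.9% lower. The log2 difference of Rgs1 was -1.80 in zinc-fed pMT-10 (adjusted p = 1.44e-05), -2.64 in pMT-10 without zinc (adjusted p = 1.77e-07) and -3.11 in C57BL/6 (adjusted p = 2.59e-08). That of Rgs16 was -2.41 (adjusted p = 0.00032), -7.81 (adjusted p = 1.9e-07) and -5.90 (adjusted p = 4.06e-07) in the same order. These Rgs1 and Rgs16 calls held without any 1 library.

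Smaller CD8 to CD4 differences were seen for the other members. Rgs14 was lower in CD8 cells by a log2 of -0.50 in zinc-fed pMT-10 (adjusted p = 0.0157), -0.55 in pMT-10 without zinc (adjusted p = 0.00969) and -0.47 in C57BL/6 (adjusted p = 0.0252). Each of those groups of CD8 libraries lay below its CD4 group without overlap. Of all genes, 43.5%, 38.5% and 35% did not overlap in the same order of mice, in either direction. Each Rgs14 call was lost without either of 2 libraries. These were CD8 replicate 2 and CD4 replicate 3 in zinc-fed pMT-10 (adjusted p up to 0.121), replicate 1 of each cell type in pMT-10 without zinc (up to 0.0569), and CD8 replicate 2 and CD4 replicate 3 in C57BL/6 (up to 0.113). Rgs2 was lower in CD8 cells of pMT-10 without zinc (log2 -0.59, adjusted p = 0.0414) and of C57BL/6 (log2 -0.70, adjusted p = 0.0174). Leaving out 1 library ended those Rgs2 calls in all cases but pMT-10 CD8 replicate 2, C57BL/6 CD8 replicate 2 and C57BL/6 CD4 replicates 1 and 3 (adjusted p up to 0.207 and 0.0716). Rgs3 was lower in CD8 cells under zinc-fed pMT-10 (log2 -1.14, adjusted p = 0.046), a call that ended without any 1 library (adjusted p from 0.0802 to 0.153). In pMT-10 without zinc it was -1.21 (adjusted p = 0.049), called again only without CD8 replicate 2, and up to an adjusted p of 0.21. In zinc-fed pMT-10 mice Rgs19 was higher in CD8 cells (log2 0.50, adjusted p = 0.0217), and not without CD4 replicate 1 or 2 or CD8 replicate 2 or 3 (up to 0.0867). Rgs10 was higher in CD8 cells of pMT-10 without zinc (log2 0.70, adjusted p = 0.0158), and not without CD4 replicate 1 or 2 or CD8 replicate 2 (up to 0.172).

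On the log2 scale, the shift of zinc-fed pMT-10 cells from controls was larger in CD8 than in CD4 cells for Rgs16 and, against C57BL/6, for Rgs1. In CPM the rises were larger in CD4 cells. Mean Rgs16 was 87.5 CPM against 27.4 and 43.3 in CD4 controls, and 16.3 against 0.118 and 0.706 in CD8 controls. Mean Rgs1 was 204 CPM against 85.8 in C57BL/6 in CD4 cells, and 58.8 against 9.98 in CD8 cells. The CD8 change minus the CD4 change of Rgs16 was a log2 of 3.48 against C57BL/6 (SE 0.71, adjusted p = 0.00823) and 5.40 against pMT-10 without zinc (SE 0.91, adjusted p = 0.00305), and both held without any 1 library. For Rgs1 it was 1.32 against C57BL/6 (SE 0.35, adjusted p = 0.0312) and 0.84 against pMT-10 without zinc (SE 0.35, adjusted p = 0.184). The Rgs1 call was lost without C57BL/6 CD4 replicate 1 or 2, C57BL/6 CD8 replicate 3, or replicate 1 or 3 of zinc-fed pMT-10 CD4 or CD8 cells (adjusted p up to 0.0959). These were 2 of 8 genes against C57BL/6, beside 5.49% of all genes (3.41% in that direction), and 1 of 8 against pMT-10 without zinc, beside 3.78% (2.44%). The Rgs19 difference of 0.48 against C57BL/6 was not called (SE 0.22, adjusted p = 0.225).

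Of the other 13 numbered RGS genes, 3 were tested, Rgs8, Rgs11 and Rgs12. The remaining 10 had at most 7 counts in a library, and Rgs4, Rgs17 and Rgs21 had 0 counts in all 18. Rgs8, the R4 member next to Rgs16 that is best known from brain, had CD4 counts of 94, 32 and 148 with zinc in pMT-10 mice, 0 in all 3 CD4 libraries of pMT-10 without zinc, and 0, 0 and 16 in those of zinc-fed C57BL/6. In CD8 cells it had 2, 0 and 23 counts in zinc-fed pMT-10, 1, 0 and 0 in pMT-10 without zinc, and 0 in all 3 C57BL/6 libraries. The zinc-fed pMT-10 CD4 libraries thus lay above all CD4 controls, and the CD8 reads came almost wholly from replicate 3. In CD4 cells Rgs8 was at least 114-fold higher than in pMT-10 without zinc, taking 3 counts over the group as the floor (adjusted p = 0.00393). Rgs8 passed the low-count filter only through its zinc-fed pMT-10 CD4 libraries. Its adjusted p values in CD4 cells are therefore no independent support for the rise. The bound was at least 78.8-fold without zinc-fed replicate 3, and the call held without any 1 library. Against C57BL/6 the CD4 means of 6.69 ± 4.15 and 0.419 CPM differed 16-fold, which was not called (adjusted p = 0.063). Without C57BL/6 CD4 replicate 3, the library with the Xist reads and the 16 counts, it was (adjusted p = 0.00788); the part of those reads was not tested.

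**Figure D3:**
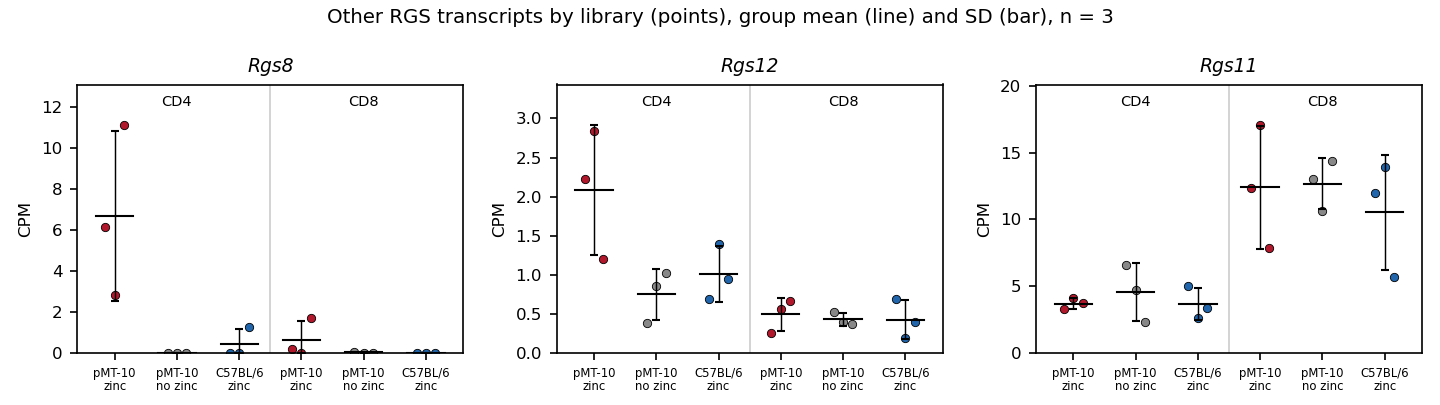
Levels of Rgs8, Rgs11 and Rgs12 in the 18 libraries, in CPM scaled by TMM, by group; points are libraries, bars the mean, and error bars the SD of 3 libraries (stopped at 0). Rgs8 reached 2.84 to 11.1 CPM in zinc-fed pMT-10 CD4 cells, and Rgs11 was higher in CD8 than in CD4 cells of each kind of mouse.

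Rgs11, an R7 member that pairs with Gβ5 and is known from retina, averaged 12.4 ± 4.60 CPM in CD8 and 3.70 ± 0.408 CPM in CD4 cells of zinc-fed pMT-10 mice (SD, n = 3 each). CD8 cells were higher by a log2 of 1.75 there (adjusted p = 0.00277), 1.48 in pMT-10 without zinc (adjusted p = 0.00968) and 1.51 in C57BL/6 (adjusted p = 0.00947). The call in pMT-10 without zinc was lost without CD4 replicate 3 (adjusted p = 0.0585), and that in C57BL/6 without replicate 2 of either cell type (adjusted p up to 0.0526). Rgs12, a large R12 member, was at 2.22, 2.84 and 1.20 CPM in zinc-fed pMT-10 CD4 cells, and averaged 0.753 ± 0.327 CPM in pMT-10 without zinc and 1.01 ± 0.357 CPM in C57BL/6 (SD, n = 3 each). Neither Rgs11 nor Rgs12 was called in any comparison with zinc-fed pMT-10 cells.

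The genes nearest in profile to each called member were found by the root-mean-square difference of centred log2 CPM over the 18 libraries, as a description only; the profiles share libraries and depth. Nearest to Rgs16, whose own root-mean-square deviation was 3.12, were Prdm1 (0.46), Gcnt1 (0.61) and Tigit (0.74). Prdm1 encodes the transcription factor Blimp-1, Gcnt1 a glycosyltransferase and Tigit an inhibitory receptor. In CD8 cells Prdm1 averaged 38.7 ± 21.3 CPM in zinc-fed pMT-10, 0.596 ± 0.528 in pMT-10 without zinc and 2.18 ± 0.597 in C57BL/6 (SD, n = 3 each). Nearest to Rgs1 (own deviation 1.63) were Casp1 (0.30), B930095G15Rik (0.35) and Serpina3g (0.37). Casp1, an inflammatory caspase, averaged 108 ± 21.5 CPM in zinc-fed pMT-10 CD4 cells, 39.0 ± 10.8 in pMT-10 without zinc and 37.3 ± 2.82 in C57BL/6 (SD, n = 3 each). Rgs3 (0.93) had Tspan3 (0.41), Arsb (0.43) and Bub1b (0.44) nearest. Rgs10 (0.42) had Raly, Cnp and Mrps35 at 0.22 each, and Rgs19 (0.32) had Lamp1 (0.14), B4galt1 (0.17) and Smc6 (0.17).

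Genes that work beside RGS proteins were counted by role. Among the 9 other tested genes with an RGS domain, none was called higher in the 4 comparisons with zinc-fed pMT-10 cells; in CD4 cells 3 were lower against C57BL/6 and 4 against pMT-10 without zinc, and in CD8 cells 0 and 1. Of all genes, 9.29% and 9.38% were higher and 9.4% and 9.4% lower in CD4 cells against C57BL/6 and pMT-10 without zinc, and 5.68% and 5.1% were higher and 3.13% and 2.64% lower in CD8 cells, so 0 of 9 called higher is near the share of all genes. Arhgef11, an exchange factor that carries Gα12 and Gα13 signals to RhoA, averaged 4.65 CPM in zinc-fed pMT-10 CD4 cells, against 22.9 CPM in C57BL/6 (log2 -2.31, adjusted p = 0.000504) and 20.6 CPM in pMT-10 without zinc (log2 -2.16, adjusted p = 0.000903). Without zinc-fed pMT-10 replicate 2 these log2 values were -3.00 and -2.85. Its CD8 difference from pMT-10 without zinc (log2 -1.42, adjusted p = 0.0355) held only when replicate 2 of the group without zinc was left out (otherwise up to 0.143). Axin2, a scaffold of Wnt signalling, averaged 94.6 CPM in zinc-fed pMT-10 CD4 cells, against 189 CPM in C57BL/6 (log2 -0.997, adjusted p = 0.00392) and 218 CPM in pMT-10 without zinc (log2 -1.20, adjusted p = 0.000785). Among 16 G-protein subunits, 2 were higher and 0 lower in each comparison, where 18.7% and 18.8% of all genes were called in CD4 cells and 8.81% and 7.74% in CD8 cells; these counts are near the shares of all genes. Gng2, a γ subunit, was higher in all 4: it averaged 187 CPM in zinc-fed pMT-10 CD8 cells, against 71.2 CPM in C57BL/6 (log2 1.39, adjusted p = 0.00102) and 62.4 CPM in pMT-10 without zinc (log2 1.59, adjusted p = 0.000263). In CD4 cells Gng2 averaged 442 CPM in zinc-fed pMT-10, against 108 CPM in C57BL/6 (log2 2.03, adjusted p = 1.01e-05) and 112 CPM in pMT-10 without zinc (log2 1.99, adjusted p = 1.11e-05). The other calls were Gnao1 in CD8 cells, with 79 counts in zinc-fed pMT-10 and 0 in either control, Gnb1 against C57BL/6 in CD4 cells and Gngt2 against pMT-10 without zinc in CD4 cells. The Gnao1 calls (adjusted p = 0.043 against C57BL/6 and 0.0394 against pMT-10 without zinc) were lost without any 1 library, except zinc-fed replicate 2 in the comparison with pMT-10 without zinc (up to 0.134 and 0.126). With both CD8 controls at 0, Gnao1 passed the low-count filter in fits of the compared groups only through its zinc-fed libraries. Its CD8 adjusted p values are therefore no independent support for the rise. Gnb1, a β subunit, averaged 782 CPM in zinc-fed pMT-10 CD4 cells and 599 CPM in C57BL/6 (log2 0.39, adjusted p = 0.0351); the call was lost without replicate 1 or 3 of zinc-fed pMT-10 or 1 or 2 of C57BL/6 (up to 0.18). Gngt2, a γ subunit, averaged 70.7 CPM in zinc-fed pMT-10 CD4 cells and 36.1 CPM in pMT-10 without zinc (log2 0.97, adjusted p = 0.007), and was not called without zinc-fed replicate 3 (adjusted p = 0.0675).

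Of 5 modulators that hold Gαi subunits or act on them without an RGS domain, Gpsm3 alone was called, lower in CD8 cells against C57BL/6 (436 CPM against 598 CPM, log2 -0.46, adjusted p = 0.0383). That call was lost without zinc-fed pMT-10 replicate 1 or 2 or C57BL/6 replicate 2 or 3 (adjusted p up to 0.176). Single calls in lists of this size are near the 8.81% of all genes called there. Of 7 receptor kinases and arrestins, 1 was called in each comparison but CD4 cells against pMT-10 without zinc, where 3 were, beside 18.8% of all genes. In the others 18.7% of all genes were called in CD4 cells, and 8.81% and 7.74% in CD8 cells. There 1 of 7 is near the share of all genes. Arrb1, which uncouples receptors from G proteins, was lower in all 4 comparisons. It averaged 42.6 CPM in zinc-fed pMT-10 CD8 cells, against 76.0 CPM in C57BL/6 (log2 -0.84, adjusted p = 0.00942) and 80.4 CPM in pMT-10 without zinc (log2 -0.92, adjusted p = 0.00462). The CD8 call against C57BL/6 was lost without zinc-fed pMT-10 replicate 2 or C57BL/6 replicate 3 (adjusted p up to 0.0617). In CD4 cells it averaged 56.6 CPM in zinc-fed pMT-10, against 99.8 CPM in C57BL/6 (log2 -0.82, adjusted p = 0.00482) and 111 CPM in pMT-10 without zinc (log2 -0.98, adjusted p = 0.00113). Grk6 and Adrbk2 were called higher in CD4 cells against pMT-10 without zinc, with adjusted p values of 0.0341 and 0.0243. The Grk6 call was lost without any 1 library (up to 0.117), and the Adrbk2 call without any but zinc-fed replicate 2 (up to 0.0837).

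Of 17 effectors, 3 were higher and 5 lower in CD4 cells against either control, beside 18.7% and 18.8% of all genes called. In CD8 cells 0 were higher and 1 lower against either control, near the 8.81% and 7.74% of all genes called. Pik3r5, a regulatory subunit of the phosphoinositide 3-kinase that Gβγ activates, averaged 62.2 CPM in zinc-fed pMT-10 CD4 cells, against 154 CPM in C57BL/6 (log2 -1.31, adjusted p = 6.73e-05) and 160.0 CPM in pMT-10 without zinc (log2 -1.37, adjusted p = 4.09e-05). Pde7a, a cAMP phosphodiesterase, averaged 69.8 CPM in zinc-fed pMT-10 CD4 cells, against 30.6 CPM in C57BL/6 (log2 1.19, adjusted p = 2.88e-05) and 39.1 CPM in pMT-10 without zinc (log2 0.84, adjusted p = 0.000877). Pde3b, another cAMP phosphodiesterase, averaged 359 CPM in zinc-fed pMT-10 CD8 cells, against 568 CPM in pMT-10 without zinc (log2 -0.66, adjusted p = 0.000857). The CD8 difference from C57BL/6 was smaller (log2 -0.45, adjusted p = 0.0184) and was lost without either of 2 libraries (up to 0.0736). In CD4 cells Pde3b averaged 91.0 CPM in zinc-fed pMT-10 and 206 CPM in pMT-10 without zinc (log2 -1.18, adjusted p = 8.89e-07). Prex1, a Rac exchange factor that Gβγ activates, averaged 200.7 CPM in zinc-fed pMT-10 CD4 cells, against 104 CPM in C57BL/6 (log2 0.94) and 111 CPM in pMT-10 without zinc (log2 0.85), and was called in both.

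Receptors moved in both directions. Of 21 Gαi-coupled receptors, in CD8 cells 3 were higher and 5 lower against C57BL/6, beside 8.81% of all genes called, and 4 and 4 against pMT-10 without zinc, beside 7.74%. In CD4 cells 4 were higher and 9 lower against C57BL/6, beside 18.7%, and 3 and 8 against pMT-10 without zinc, beside 18.8%; the median log2 fold changes there were -0.98 and -1.15, beside -0.05 for all genes in each. S1pr1, the sphingosine 1-phosphate receptor of lymphocyte egress, averaged 225 CPM in zinc-fed pMT-10 CD4 cells, against 1438 CPM in C57BL/6 (log2 -2.68, adjusted p = 0.000212) and 1309 CPM in pMT-10 without zinc (log2 -2.54, adjusted p = 0.000316). Without zinc-fed pMT-10 replicate 2 the S1pr1 log2 values were -3.53 and -3.40. Gpr15, a homing receptor, averaged 2.58 CPM there, against 32.6 CPM in C57BL/6 (log2 -3.66, adjusted p = 3.41e-06) and 35.7 CPM in pMT-10 without zinc (log2 -3.79, adjusted p = 2.31e-06). Ccr9, the receptor for Ccl25, averaged 22.6 CPM in zinc-fed pMT-10 CD8 cells, against 73.6 CPM in C57BL/6 (log2 -1.70, adjusted p = 0.00208) and 70.9 CPM in pMT-10 without zinc (log2 -1.65, adjusted p = 0.0028). Cxcr4, the receptor for Cxcl12 that holds cells in marrow, averaged 101 CPM in zinc-fed pMT-10 CD8 cells, against 257 CPM in pMT-10 without zinc (log2 -1.35, adjusted p = 9.22e-05).

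Of 14 receptors coupled mainly to Gαs, Gαq or Gα13, 2 were higher and 0 lower in CD8 cells against C57BL/6, beside 5.68% of all genes higher and 3.13% lower. Against pMT-10 without zinc 3 were higher and 0 lower there, beside 5.1% and 2.64%. In CD4 cells 2 were higher and 4 lower against either control, beside 18.7% and 18.8% of all genes called in both directions. F2r, the thrombin receptor, was higher in all 4: it averaged 48.9 CPM in zinc-fed pMT-10 CD8 cells, against 19.6 CPM in C57BL/6 (log2 1.31, adjusted p = 0.00118) and 15.9 CPM in pMT-10 without zinc (log2 1.62, adjusted p = 0.000138). In CD4 cells F2r averaged 65 CPM in zinc-fed pMT-10, against 10.7 CPM in C57BL/6 (log2 2.61, adjusted p = 5.22e-07) and 14.2 CPM in pMT-10 without zinc (log2 2.19, adjusted p = 2.31e-06).

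**Figure D4:**
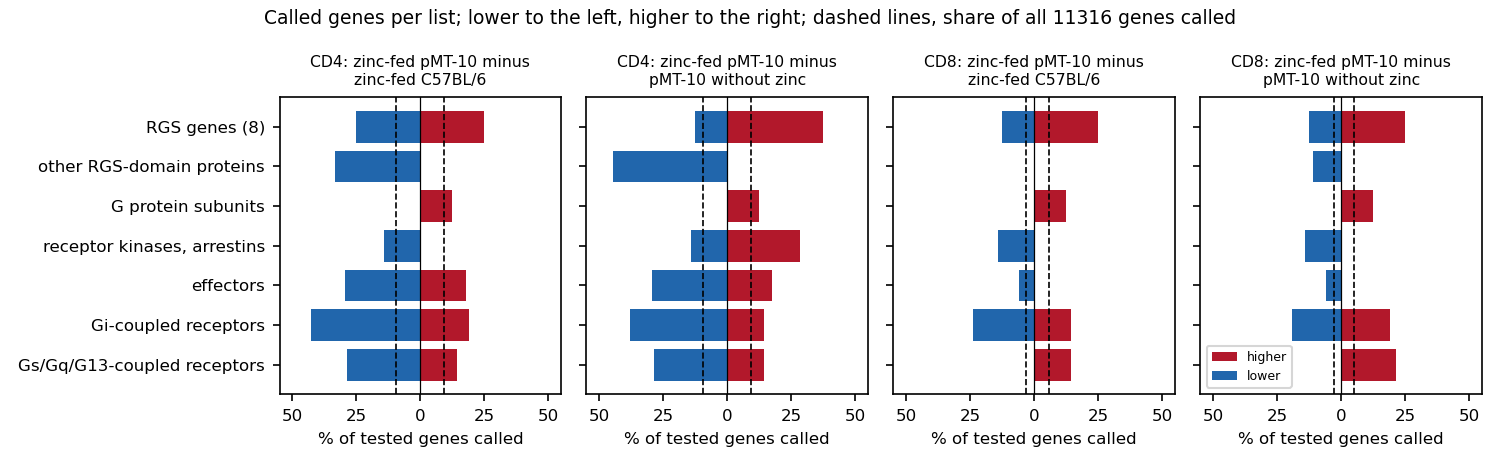
Share of the tested genes of each role called higher or lower in zinc-fed pMT-10 cells, for each cell type and control, in percent; dashed lines give the share of all 11316 tested genes called. Gαi-coupled receptors were lower in 9 of 21 cases and higher in 4 of 21 in CD4 cells against C57BL/6.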

How the data were processed

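Ion AmpliSeq mouse transcriptome libraries were sequenced from RNA of sorted cells, extracted with RNeasy Micro columns, per the labels' protocols. The authors deposited raw read counts per amplicon, 1 amplicon per gene, for 18 libraries, and they used the mouse build mm10, per the submitters' processing notes; the sources used here do not name an aligner or a counter. Total counts of 10546798 to 18519474 set the precision, and intervals from counts cover counting error only.

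From these counts, edgeR 4.0.16 (R 4.3.3, limma 3.58.1) was used with TMM scaling, filterByExpr and robust quasi-likelihood fits of 6 group means over 18 libraries. A call meant an adjusted p under 0.05 (Benjamini-Hochberg, all 11316 tested genes). Where a group was at 0, a bound used a floor of 3 counts over the group. The 95% intervals of log2 differences were the log2 fold change ± 1.96 SE. This normal approximation can be narrower than the quasi-likelihood F test implies. The series' design names 3 mice of each kind, but no label ties a library to a mouse, so p-values measure the spread between these samples, which may be technical. Pairs of replicates were compared by chi-square over genes, and all differed by more than sampling noise.

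Alternatives were DESeq2 1.42.0 size factors, DESeq2's Wald test, scaling by total count, no low-count filter, a fit of the compared groups only and leaving out each library. The members and lists were chosen with earlier results of these data known. Named genes were the 8 members, the other numbered RGS genes, up to 2 called genes of each role with the largest change per direction and comparison, some of which are counted without values or not reported here, and the 3 genes nearest in profile. Strand was not stated, so antisense reads cannot be told apart.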

Additional observations from a re-analysis of the deposited data

Results flagged for a closer look

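Rgs16 against both controls, and Rgs1 against C57BL/6, changed by different amounts on the log2 scale in CD8 and CD4 cells, by edgeR's quasi-likelihood test of the interaction. The CD8 log2 change minus the CD4 log2 change of Rgs16 was 3.48 with the C57BL/6 controls (SE 0.71, adjusted p = 0.00823) and 5.40 with the pMT-10 controls without zinc (SE 0.91, adjusted p = 0.00305). For Rgs1 it was 1.32 with the C57BL/6 controls (SE 0.35, adjusted p = 0.0312), a call that held in 5 of 12 fits that each left out 1 library, and 0.84 with the pMT-10 controls without zinc, which was not called (SE 0.35, adjusted p = 0.184). The Rgs16 values start from 5 counts in pMT-10 without zinc and 27 counts in C57BL/6 over 3 CD8 libraries each.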

How the results depend on the processing

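No paired analysis was possible because the labels carry no replicate numbers that the groups share; the replicate numbers used here are accession order only. Of the 32 calls on members, 16 held without any 1 library, and so did 45 of the 62 calls on other named genes. Leaving out 1 library, the members called numbered 2 to 5 (4 with all) in CD4 and 2 to 3 (3) in CD8 cells for zinc-fed pMT-10 against C57BL/6, and 2 to 4 (4) in CD4 and 2 to 3 (3) in CD8 cells against pMT-10 without zinc. For CD8 against CD4 cells they numbered 2 to 4 (5) in zinc-fed pMT-10, 2 to 5 (6) in pMT-10 without zinc and 3 to 5 (4) in C57BL/6; for the interaction against C57BL/6, 1 to 2 (2). Without the low-count filter, pMT-10 without zinc against C57BL/6 gained 1 call in CD8 cells (Rgs16), and the interaction against pMT-10 without zinc had 2 calls, with Rgs1 at an adjusted p of 0.0343. In that setting edgeR's quasi-likelihood test took Rgs1 in CD8 cells against C57BL/6 from an adjusted p of 1.99e-06 to 2.89e-35. Its log2 fold change stayed near 2.57 (2.56 without the filter). Calls gained without the filter are therefore no separate support. The same setting gained Rgs3 in CD8 cells when zinc-fed pMT-10 mice were set against those without zinc (adjusted p = 0.0484), and it ended both calls of Rgs3 between CD8 and CD4 cells (adjusted p = 0.0634 in zinc-fed pMT-10 and 0.0661 in pMT-10 without zinc). The direction turned, always without a call, for Rgs14, Rgs18 and Rgs2. Against C57BL/6 in CD4 cells, leaving out 1 library gave log2 fold changes of -0.18 to 0.12 for Rgs14 (above 0 without C57BL/6 replicate 3 or zinc-fed pMT-10 replicate 1) and -1.58 to 0.77 for Rgs18 (below 0 without zinc-fed pMT-10 replicate 3 or C57BL/6 replicate 1). In CD8 cells they ran from -0.27 to 0.046 for Rgs2 (above 0 without zinc-fed pMT-10 replicate 1), -0.14 to 0.0096 for Rgs14 (without C57BL/6 replicate 3) and -2.82 to 5.11 for Rgs18 (below 0 without zinc-fed pMT-10 replicate 3). In comparison with pMT-10 without zinc they ran from -0.31 to 0.00091 for Rgs14 and -0.83 to 1.48 for Rgs18 in CD4 cells (turned without zinc-fed replicate 1 and 3), and from -6.07 to 0.90 for Rgs18 in CD8 cells (above 0 without replicate 2 of the group without zinc). The cause was not tested, and low counts of Rgs18 limit what can be seen. Scaling by total count moved the median log2 fold change of all genes by -0.11 and -0.15 in CD4 cells against C57BL/6 and pMT-10 without zinc, and by 0.16 and 0.18 in the interactions. Rgs18, Rgs8, Ccr10 and Adrbk2 could not be tested in some fits of the compared groups only, where the filter removed them.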
